A study of Mus musculus with 8 samples.

Results

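Leukotrienes and prostaglandins are lipid mediators made from arachidonic acid. The 10 genes described here encode enzymes of their synthesis or related proteins: Alox5, Alox5ap, Lta4h, Ltc4s, Mgst1, Mgst2, Mgst3, Ptgs1, Ptgs2 and Hpgds. All 10 are called enzyme genes below for short, although Alox5ap encodes an activating protein. They were taken by symbol from the 24421 gene symbols of the count files, and all 10 were present. The set was put together around Mgst2 because its RNA was about 10-fold higher in cells without Ikzf2. The KO against WT values of the 10 genes are therefore given as a description, with no test.

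RNA was sequenced from leukemic bone marrow cells of C57BL/6 mice that were transformed with MLL-AF9, a fusion oncogene of acute leukemia, and sorted for high c-KIT. The KO libraries came from Ikzf2Δ/Δ cells and the WT libraries from Ikzf2f/f cells, in which Ikzf2 is flanked by recombination sites but still present, with 2 libraries each. Both genotypes carried the fusion oncogene and were thawed from frozen marrow before sorting. Ikzf2 encodes Helios, a DNA-binding Ikaros family protein, and the study asked about its part in self-renewal and myeloid differentiation. The recombinase used, the ages and whether the libraries of a genotype came from separate mice are not stated in the labels used here, so the errors below measure the spread between these libraries. The KO libraries differed from each other in X-linked and Y-linked RNA, with the values given beside the library totals, so neither repeats the cells of the other. Whether the WT libraries came from separate cells is not known here, and their spread may be technical.

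Arachidonic acid is freed from membranes by phospholipases and then enters either branch of the pathway. In the leukotriene branch, 5-lipoxygenase (Alox5) works with its activating protein FLAP (Alox5ap) to make leukotriene A4, which Lta4h turns into leukotriene B4, an attractant for neutrophils, and which leukotriene C4 synthase (Ltc4s) joins to glutathione. In the prostaglandin branch, the cyclooxygenases Ptgs1 and Ptgs2 make prostaglandin H2, from which terminal synthases such as Hpgds make the separate prostaglandins. Mature neutrophils and monocytes are known sources of leukotriene B4, and mast cells of leukotriene C4 and prostaglandin D2.

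Counts over all genes totalled 16006081 and 18017545 in KO replicates 1 and 2, against 19286090 and 18711837 in WT replicates 1 and 2. Values are given as CPM, in which counts are set against the size of the library with TMM factors, and a count of 3 equalled at most 0.186 CPM in any library. Ikzf2 was at 10.9 and 26.5 CPM in KO replicates 1 and 2, against 283 and 271 CPM in WT replicates 1 and 2. Ddx3y, a Y-linked gene, was at 0.062 and 70.1 CPM in KO, against 110 and 102 CPM in WT. Xist, the X-inactivation RNA, reached 833 CPM in KO replicate 1 but only 0.352 CPM in KO replicate 2, against 0.600 and 0.477 CPM in WT, so KO replicate 1 stood apart in sex-linked RNA and fold changes are also given without it. Kit, which encodes the sorted receptor, was at 236 and 376 CPM in KO and at 216 and 330 CPM in WT, and the leukemia genes Hoxa9 and Meis1 were counted in every library.

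The 250 bases before the start site are shown for the 3 enzyme genes with the highest fold change among those whose groups did not overlap, Mgst2, Ptgs1 and Mgst1. The sequences are from RefSeq, build GRCm38.p6, and lie at chr3:51660929-51661178, chr2:36230176-36230425 and chr6:138140277-138140526, each on the plus strand, 5′ to 3′. For Mgst2 and Ptgs1 the start site used lies inside the annotated gene span, and Mgst1 has another start site in the same table. Capitals mark every match, on either strand, to any of 6 motifs. The first is TTGCNNAA, the consensus of C/EBP factors. The next is AGGAAG, known from ETS factors such as PU.1, which drives myeloid genes. Then comes TGGGAA, the core bound by proteins of the Ikaros family. The remaining motifs belong to core promoters: TATAAA, which sits where the TATA-binding protein lands, then GGGCGG, which SP1 and its relatives recognise, and finally CCAAT, the element of the NF-Y complex.
Mgst2: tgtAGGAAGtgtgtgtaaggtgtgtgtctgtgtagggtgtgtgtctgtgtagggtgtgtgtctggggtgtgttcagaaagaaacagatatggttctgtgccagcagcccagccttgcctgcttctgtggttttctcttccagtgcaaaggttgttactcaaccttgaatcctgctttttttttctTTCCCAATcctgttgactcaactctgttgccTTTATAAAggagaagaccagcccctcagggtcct
Ptgs1: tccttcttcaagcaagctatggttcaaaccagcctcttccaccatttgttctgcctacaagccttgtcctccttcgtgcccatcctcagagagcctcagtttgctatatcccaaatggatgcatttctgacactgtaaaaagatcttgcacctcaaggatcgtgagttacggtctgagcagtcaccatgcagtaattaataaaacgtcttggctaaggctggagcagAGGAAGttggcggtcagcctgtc
Mgst1: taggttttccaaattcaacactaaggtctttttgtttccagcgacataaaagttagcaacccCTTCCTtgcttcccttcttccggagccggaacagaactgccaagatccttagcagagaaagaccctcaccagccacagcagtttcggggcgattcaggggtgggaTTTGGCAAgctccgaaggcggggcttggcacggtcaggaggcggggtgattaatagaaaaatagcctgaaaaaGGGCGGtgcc

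In the Mgst2 sequence the TATA box letters began 32 bases before the start site on the plus strand, with an overlapping match on the minus strand. The Ikaros family letters (minus strand) began 65 bases and the CCAAT letters 62 bases before it, and these matches overlap. The ETS letters lay at the far end, 247 bases before the start. The Ptgs1 sequence held 1 match, the ETS letters 23 bases before its start. The Mgst1 sequence held the ETS, C/EBP and SP1 letters, at 188, 83 and 10 bases before its start. Over all 32851 promoters in the table, 29.5% held the ETS letters, 21.6% the Ikaros family letters, 12.4% the TATA box letters and 9.56% the C/EBP letters. The CCAAT letters were in 33.8% of them and the SP1 letters in 32.7%. The table held 10 start sites for 9 of the 10 enzyme genes, Alox5ap having none. Of these 10 sequences 7 held the ETS letters, 2 the Ikaros family letters (Mgst2 and Ltc4s), 3 the C/EBP letters (Hpgds, Mgst1 and Ptgs2) and 1 the TATA box letters (Mgst2). The CCAAT letters were in 2 (Lta4h and Mgst2) and the SP1 letters in 4 (Alox5, Mgst1, Mgst3 and Ptgs2). A match describes the letters only and is not a binding site.

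Mgst2 (chr3:51636912-51682675) was the enzyme gene with the widest gap between the genotypes. It encodes a microsomal glutathione transferase of the MAPEG family, to which Ltc4s, Alox5ap, Mgst1, Mgst3 and Ptges also belong, and can join glutathione to leukotriene A4. It was at 153 and 54.5 CPM in KO, against 7.30 and 11.7 CPM in WT, from raw counts of 2470 and 928 in KO and 146 and 220 in WT. Both KO libraries lay above both WT libraries. EdgeR put the log2 fold change at 3.45 (SE 0.59, n = 2 per group), or 10.9-fold, and 75 of the 12623 genes tested, or 0.594%, had a value at least as high. The KO libraries differed from each other by more than the WT libraries did: log2 CPM was lower by 1.49 in KO replicate 2 than in KO replicate 1, and higher by 0.67 in WT replicate 2 than in WT replicate 1. Without KO replicate 1 the log2 fold change was 2.52, and without KO replicate 2 it was 4.01. Over the 4 pairs of a KO with a WT library the log2 difference ran between 2.21 and 4.37.

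Ptgs1 (chr2:36216742-36258593) encodes cyclooxygenase 1, the form that is made without stimulation in many tissues. It was at 383 and 264 CPM in KO, against 79.7 and 132 CPM in WT. Both KO libraries were above both WT libraries, with a log2 fold change of 1.61 (SE 0.35), or 3.05-fold. The value was 1.32 without KO replicate 1. Ptgs1 shared the order of libraries with Mgst2, as did Mgst1: KO replicate 1 was highest, then KO replicate 2, WT replicate 2 and WT replicate 1.

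Mgst1 (chr6:138140527-138156755), a microsomal glutathione transferase and peroxidase that detoxifies reactive lipids, was at 150 and 131 CPM in KO, against 56.8 and 74.9 CPM in WT. The groups did not overlap, and the log2 fold change of 1.09 (SE 0.23) was 0.99 without KO replicate 1. Mgst3, the third of these transferases, was at 13.7 and 5.52 CPM in KO, against 7.30 and 3.08 CPM in WT. Its groups overlapped. Mgst3 was lower in replicate 2 than in replicate 1 by 1.29 on the log2 scale within KO and by 1.22 within WT, which was more than its log2 fold change of 0.88 (SE 0.68). Without KO replicate 1 that fold change was 0.090.

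The genes of the first steps of the leukotriene branch stood closer together. Lta4h (chr10:93453396-93484896), the hydrolase that makes leukotriene B4, was at 1857 and 2025 CPM in KO, against 1084 and 1269 CPM in WT. Both KO libraries were above both WT libraries, and the log2 fold change was 0.72 (SE 0.23) and ran between 0.61 and 0.85 when any 1 library was left out. Alox5 (chr6:116410071-116461178) was at 31.2 and 49.1 CPM in KO, against 18.5 and 28.8 CPM in WT, with a log2 fold change of 0.76 (SE 0.36). The KO values were above the WT values, but the nearest pair, KO replicate 1 and WT replicate 2, differed by only 0.12 on the log2 scale. Replicate 2 was above replicate 1 within each genotype, by 0.65 in KO and 0.64 in WT. Without KO replicate 2 the fold change was 0.40, and without KO replicate 1 it was 1.06. Alox5ap (chr5:149265004-149288153) was at 649 and 584 CPM in KO, against 502 and 412 CPM in WT, with a log2 fold change of 0.43 (SE 0.23) that was 0.35 without KO replicate 1.

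Leukotriene C4 synthase was close to the counting limit, while Mgst2, which can also join glutathione to leukotriene A4, was not. Ltc4s had raw counts of 10 and 9 in KO, against 23 and 2 in WT, or 0.619 and 0.528 CPM in KO and 1.15 and 0.106 CPM in WT. The WT libraries spanned both KO libraries, and the log2 fold change of -0.14 (SE 1.15) changed sign, to 2.36, without WT replicate 1. The spread between the WT libraries was larger than the difference between the genotypes.

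Ptgs2 and Hpgds were also at low counts, and each rested on 1 KO library. Ptgs2, the inducible cyclooxygenase and an immediate early gene, had raw counts of 0 and 49 in KO, against 6 and 17 in WT. The count of 0 in KO replicate 1 allows a level of up to 0.186 CPM, and KO replicate 2 was at 2.88 CPM, against 0.300 and 0.902 CPM in WT. The KO libraries thus lay on both sides of the WT libraries, the fitted log2 fold change was 1.26 (SE 1.74), and it changed sign without KO replicate 2. The immediate early gene Jun was also higher in replicate 2 of each genotype, at 383 and 2832 CPM in KO and 303 and 1002 CPM in WT, and its part in the Ptgs2 values was not tested. Hpgds, the hematopoietic prostaglandin D synthase, had raw counts of 47 and 2 in KO, against 5 and 1 in WT, and did not pass the filter on low counts. KO replicate 1 held most of its reads, at 2.91 CPM, and KO replicate 2 was at 0.117 CPM, while WT had 0.250 and 0.053 CPM.

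**Figure D1:**
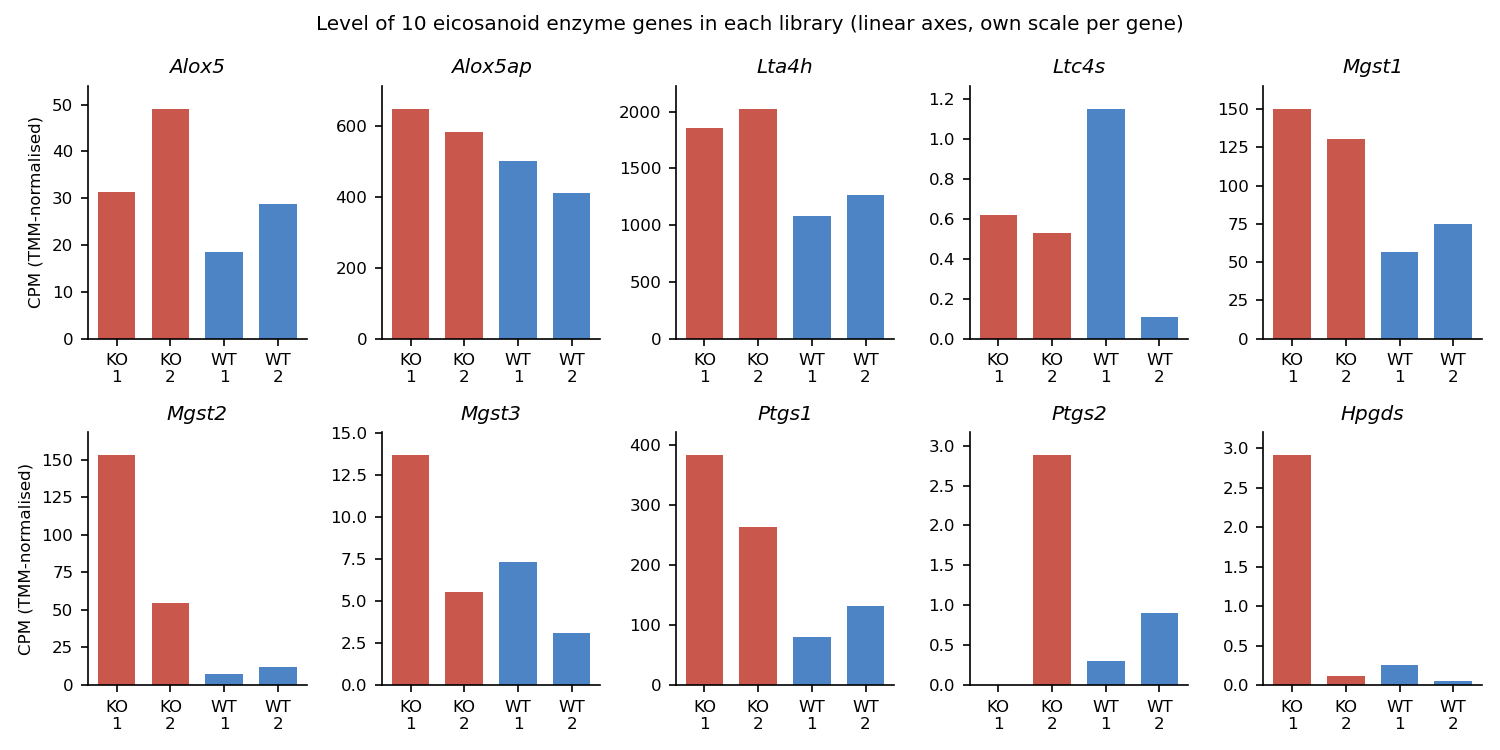
TMM-normalised CPM of each enzyme gene on a linear axis of its own that starts at 0, with 1 bar per library, KO replicates 1 and 2 in red and WT replicates 1 and 2 in blue. For Mgst2, Ptgs1, Mgst1, Lta4h, Alox5 and Alox5ap both red bars are above both blue bars, while Hpgds and Ptgs2 each have 1 high KO bar.

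Of the 10 enzyme genes 9 passed the filter on low counts, and 6 had both KO values above both WT values: Mgst2, Ptgs1, Mgst1, Alox5, Lta4h and Alox5ap. Over all 12623 genes tested, 18.1% were. None of the 10 had both KO values below both WT values, against 19.1% of genes tested. The median log2 fold change of the 9 was 0.88, beside -0.0043 over all genes tested. These counts include Mgst2, for which the set was chosen, and the others were chosen with these data known. Scaling by RLE factors or by library sizes alone left the 6 in number. Without KO replicate 1, 7 of the 10 genes were above both WT libraries, as were 35.5% of genes tested.

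**Figure D2:**
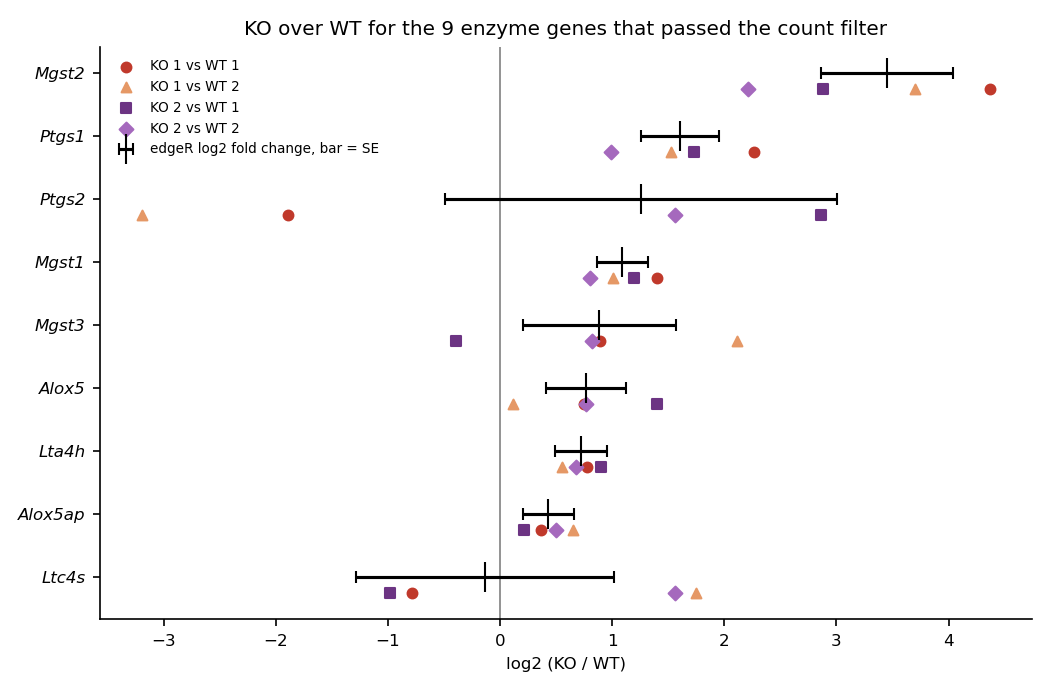
Log2 ratio of KO to WT for the 9 enzyme genes that passed the filter, sorted by edgeR's log2 fold change (black tick, bar of 1 SE), with the ratio for each of the 4 pairs of a KO with a WT library as coloured symbols. The pairs lie wholly to the right of 0 for Mgst2, Ptgs1, Mgst1, Alox5, Lta4h and Alox5ap and on both sides of it for Mgst3, Ptgs2 and Ltc4s.

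The pattern of Mgst2 over the 4 libraries was compared with that of every other gene tested, by the Euclidean distance between log2 CPM values centred on each gene's mean. The nearest were C4b, a gene of complement component C4, at a distance of 0.285, Adam19, a membrane metalloprotease, at 0.389, Enpp5 at 0.403, Rasgef1b at 0.464 and Ptgfrn, which encodes a regulator of the prostaglandin F2 receptor, at 0.505. C4b was at 10.6 and 2.88 CPM in KO, against 0.400 and 0.637 CPM in WT. Raw counts in WT were low: 8 and 12 for C4b, 2 and 4 for Adam19, and 5 and 8 for Ptgfrn. Enpp5 had 18 and 29 there, and Rasgef1b 19 and 25. The gene of the prostaglandin F2 receptor, Ptgfr, was at 0 counts in all 4 libraries. Among the other enzyme genes the nearest was Ptgs1, at a distance of 1.79 and in place 180 of 12622, followed by Mgst1 in place 443. With 4 libraries, such a likeness describes their order and spread only.

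The remaining genes of the pathway were listed by role, with earlier results of these data known, so the lists are not blind to the data. There were 51 genes, all in the files, of which 44 had a count and 30 were tested by edgeR. They show where the pathway differed between the genotypes outside the enzymes above. By edgeR's quasi-likelihood test with Benjamini-Hochberg adjustment over all 12623 genes, 0 of the 30 passed an adjusted p of 0.05, as did 0% of all genes; at an unadjusted p under 0.05 there were 6 of the 30, against 7.67% of all genes. DESeq2 called 3 of the 35 with an adjusted p as higher in KO and 0 as lower, where over all genes it called 1.56% as higher and 1.07% as lower. Of the 30 tested genes, 12 had both KO values above both WT values and 6 had both below, against 18.1% and 19.1% of all genes tested. The median log2 fold change of the 30 was 0.16.

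The receptors held 2 of the 3 DESeq2 calls. Ltb4r1 (BLT1), the high-affinity leukotriene B4 receptor that guides neutrophils, was at 228 and 257 CPM in KO, against 90.1 and 105 CPM in WT. The groups did not overlap, and Ltb4r1 rose by DESeq2 (edgeR log2 fold change 1.31, SE 0.21, DESeq2 adjusted p = 1.27e-04, edgeR adjusted p = 0.444). DESeq2 lost this call without WT replicate 1 (adjusted p = 0.294) and kept it without each of the other 3 libraries, and the edgeR value ran between 1.21 and 1.44 with 1 library left out. Ptger2, the prostaglandin E2 receptor EP2, was at 9.16 and 5.11 CPM in KO, against 0.800 and 1.49 CPM in WT. Its groups did not overlap, and it rose by DESeq2 (edgeR log2 fold change 2.64, SE 0.65, DESeq2 adjusted p = 0.0122, edgeR adjusted p = 0.444). DESeq2 lost Ptger2 without KO replicate 1 (adjusted p = 0.845), KO replicate 2 (0.105) or WT replicate 1 (0.405), and the edgeR value ran between 2.16 and 3.16 with 1 library left out.

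Of 15 listed receptors 10 were tested, with a median log2 fold change of 0.84. Of the 10, 8 had a positive log2 fold change, and 7 had both KO values above both WT values, against 18.1% of all genes tested. The others among the 7 did not pass edgeR or DESeq2. Fpr2, a formyl peptide and lipoxin receptor of neutrophils and monocytes, was at 9.65 and 30.0 CPM in KO, against 1.05 and 6.05 CPM in WT, with a log2 fold change of 2.48 (SE 0.98). That was 3.08 with KO replicate 1 left out, 1.44 with KO replicate 2, 1.72 with WT replicate 1 and 4.25 with WT replicate 2 left out, where DESeq2 called the gene (adjusted p = 3.13e-05; edgeR adjusted p = 0.0566). Of the prostaglandin E2 receptors, Ptger4 stood at a log2 fold change of 1.26 (SE 0.67) and Ptger3 at 1.14 (SE 0.83), from fewer than 50 reads in any library. Ptger1, another receptor of prostaglandin E2, was at 98.7 and 146 CPM in KO, against 157 and 133 CPM in WT, and its groups overlapped. The cysteinyl leukotriene receptor Cysltr1 had raw counts of 19 and 7 in KO, against 37 and 4 in WT.

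Among the other prostanoid synthases the call was Ptges, the microsomal prostaglandin E synthase that acts downstream of the cyclooxygenases. Ptges was at 25.3 and 21.8 CPM in KO, against 6.20 and 8.06 CPM in WT. The groups stood apart, and Ptges rose by DESeq2 (edgeR log2 fold change 1.72, SE 0.34, DESeq2 adjusted p = 9.53e-04, edgeR adjusted p = 0.444). DESeq2 lost it without KO replicate 1 (adjusted p = 0.261), KO replicate 2 (0.0685) or WT replicate 1 (0.327), while edgeR's log2 fold change stayed between 1.55 and 1.94 without any 1 library. Ptges3, the cytosolic prostaglandin E synthase and a cochaperone of HSP90, was at 93.5 and 73.6 CPM in KO, against 98.6 and 68.6 CPM in WT, with overlapping groups. Tbxas1, the thromboxane synthase, was at 37.2 and 45.8 CPM in KO, against 62.4 and 63.0 CPM in WT, and passed neither test (log2 fold change -0.59, SE 0.22). Of the 9 listed synthases 6 were tested, 2 above 0 and 4 below, with a median of -0.14.

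Upstream of the enzymes, no gene was called. Of 10 arachidonate release and re-esterification genes 6 were tested, 3 above 0 and 3 below, with a median of -0.052 and 0 calls by either tool. Pla2g4a, the cytosolic phospholipase A2 that frees arachidonic acid, was at 49.7 and 42.4 CPM in KO, against 71.6 and 60.8 CPM in WT. Its KO libraries were below its WT libraries (log2 fold change -0.52, SE 0.22, edgeR adjusted p = 0.672). Lpcat3, which puts arachidonic acid back into phospholipids and had the most reads on this list, had a log2 fold change of -0.34 (SE 0.19).

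Downstream, in export and breakdown, 8 genes were tested and 0 passed either tool. Cyp4f18, which inactivates leukotriene B4 by hydroxylation, was at 15.9 and 20.9 CPM in KO, against 73.1 and 21.8 CPM in WT. WT replicate 1 stood above the other 3 libraries: the log2 fold change of -1.37 (SE 0.59) shrank to -0.24 when WT replicate 1 was left out and became -1.98 when WT replicate 2 was, where edgeR called the gene (adjusted p = 0.0295). Hpgd, which inactivates prostaglandins, was at 1077 and 648 CPM in KO, against 489 and 761 CPM in WT, with overlapping groups. Ptgr1, a reductase that inactivates leukotriene B4 and oxidised prostaglandins, was at 324 and 352 CPM in KO, against 219 and 146 CPM in WT, and Abcc4, an exporter of prostaglandins, had a log2 fold change of 0.85 (SE 0.23). Both were higher in each KO library than in each WT library, and neither passed edgeR (adjusted p = 0.515 for Ptgr1 and 0.460 for Abcc4) or DESeq2. Abcc1, an exporter of leukotriene C4, was at 76.8 and 133 CPM in KO, against 105 and 140 CPM in WT. None of the 6 other lipoxygenases passed the filter for edgeR, and DESeq2 gave an adjusted p to Alox15 and Aloxe3 and called neither. Alox15, an enzyme of lipid mediator synthesis, had raw counts of 4 and 8 in KO, against 22 and 0 in WT.

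**Figure D3:**
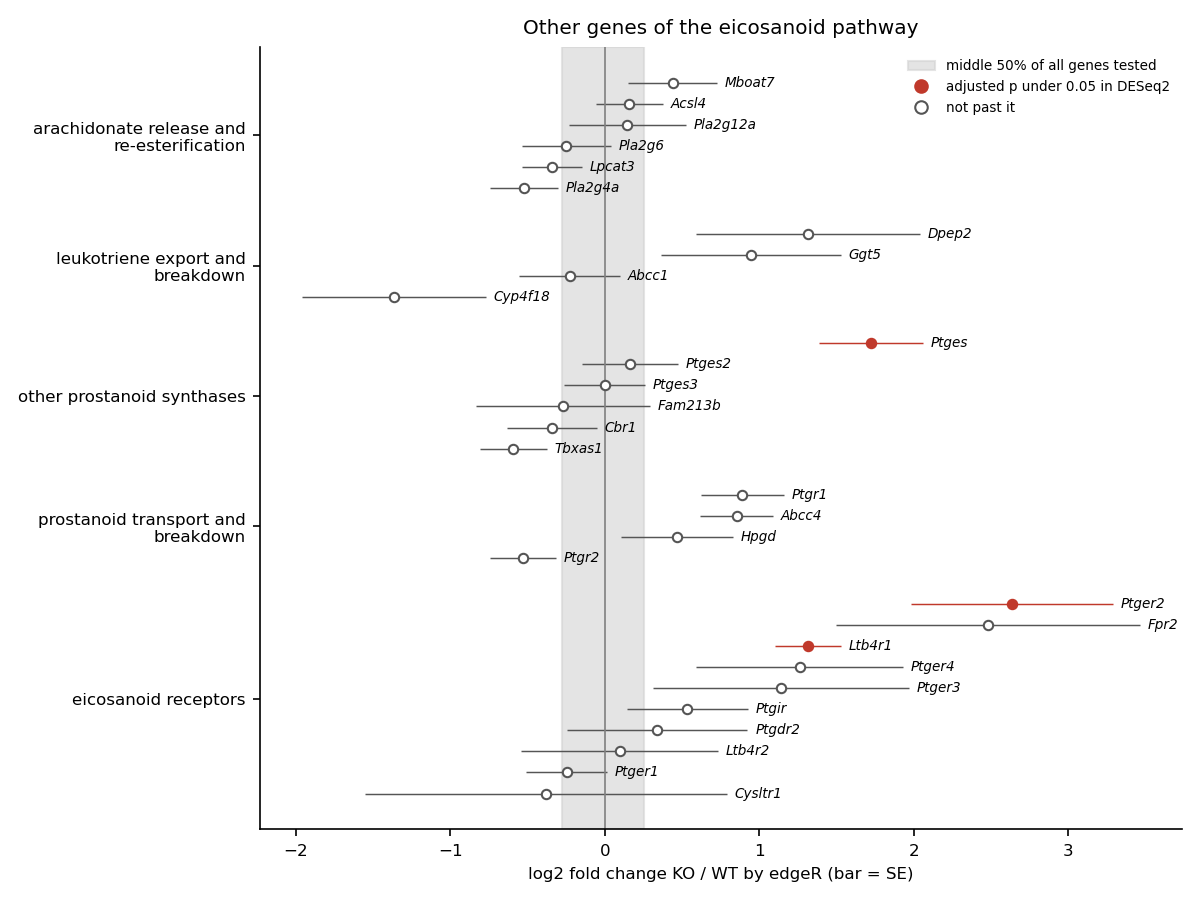
The edgeR log2 fold change of KO over WT (bar of 1 SE) for the 30 tested pathway genes, grouped by role, with genes past an adjusted p of 0.05 in DESeq2 in red and the middle 50% of all genes tested as a grey band. Ptges, Ltb4r1 and Ptger2 are the red points, and none of the 30 passed edgeR over all genes.

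Markers of cell types that make or sense these mediators were summed in each library. In these bulk samples, fewer cells of a type and less RNA per cell cannot be told apart. The 9 neutrophil markers in the files summed to 21350 and 28780 CPM in KO, against 1172 and 5711 CPM in WT, and 7 of the 9 had both KO values above both WT values. Over all genes tested, 18.1% had both above and 19.1% had both below. Neutrophils are known to express Alox5ap, Lta4h, Ltb4r1 and Fpr2. The neutrophil sum and these genes were all higher in KO, and the part of the markers in those values was not tested. Between the KO libraries the neutrophil sum was higher in replicate 2, as were Alox5, Lta4h, Ltb4r1 and Fpr2, while Mgst2, Ptgs1, Mgst1 and Alox5ap were higher in replicate 1. The marker Camp went against the sum there, at 4600 and 2605 CPM in KO. Between the WT libraries the neutrophil sum was also higher in replicate 2, and so were all of these enzyme and receptor genes except Alox5ap. The 8 monocyte and macrophage markers summed to 1914 and 1687 CPM in KO, against 2202 and 1231 CPM in WT. Of the 8, 3 were higher in both KO libraries: F13a1, Csf1r and Cx3cr1. Ms4a6c was lower in both, at 105 and 91.6 CPM in KO, against 109 and 152 CPM in WT, and the groups of the others overlapped. Ly6c2 made up most of that sum, and the other 7 summed to 656 and 480 CPM in KO, against 269 and 375 CPM in WT, without overlap. Their part in the enzyme values was not tested.

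Mast cell and basophil markers summed to 141 and 48.7 CPM in KO, against 68.2 and 38.2 CPM in WT, so they were highest in KO replicate 1, the library that held most Hpgds reads. The basophil protease gene Mcpt8 made up most of the sum in KO replicate 1, at 86.4 CPM. Of the 10 markers 2 (Hdc and Ms4a2) had both KO values above both WT values, and 0 had both below. Hdc was at 39.6 and 12.2 CPM in KO, against 11.9 and 4.40 CPM in WT. Ms4a2 was at 4.27 and 4.23 CPM in KO, against 1.45 and 2.44 CPM in WT. Cpa3 was counted in every library, with overlapping groups. The mast cell genes Tpsab1 and Mcpt4 were at 0 counts in all 4 libraries and Cma1 and Tpsb2 were at 0 in 3. The part of these markers in the Hpgds values was not tested. Megakaryocyte and platelet markers, of a lineage that uses Ptgs1, summed to 24.4 and 48.2 CPM in KO, against 34.2 and 130 CPM in WT, with Ppbp, Gp6 and Treml1 at 0 in every library. Of the 8 markers in that sum 4 had both KO values above both WT values (Vwf, Gp9, Gp1ba and Pf4), as did 18.1% of all genes tested. For Pf4 this rested on raw counts of 2 and 2 in KO, against 1 and 1 in WT, too few to be tested. Gp1ba was at 4.21 and 3.29 CPM in KO, against 3.05 and 3.18 CPM in WT. Itga2b had both KO values below both WT values, at 2.85 and 21.3 CPM in KO, against 28.6 and 112 CPM in WT. Without Itga2b, the most abundant marker, the others summed to 21.5 and 26.9 CPM in KO, against 5.60 and 18.1 CPM in WT. Their part in the Ptgs1 values was not tested. Eosinophil markers summed to 75.8 and 72.6 CPM in KO, against 60.1 and 239 CPM in WT, with Ear6 at 0 in all 4. Prg2 made up most of the sum in WT replicate 2, at 151 CPM, against 5.45 CPM in WT replicate 1. Of the 6 markers 1 (Prg3) had both KO values below both WT values, as did 19.1% of all genes tested, and 0 had both above. Prg3 was at 3.16 and 8.51 CPM in KO, against 18.7 and 19.6 CPM in WT. Erythroid markers and T and B cell markers each summed to less than 3 CPM in every library.

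**Figure D4:**
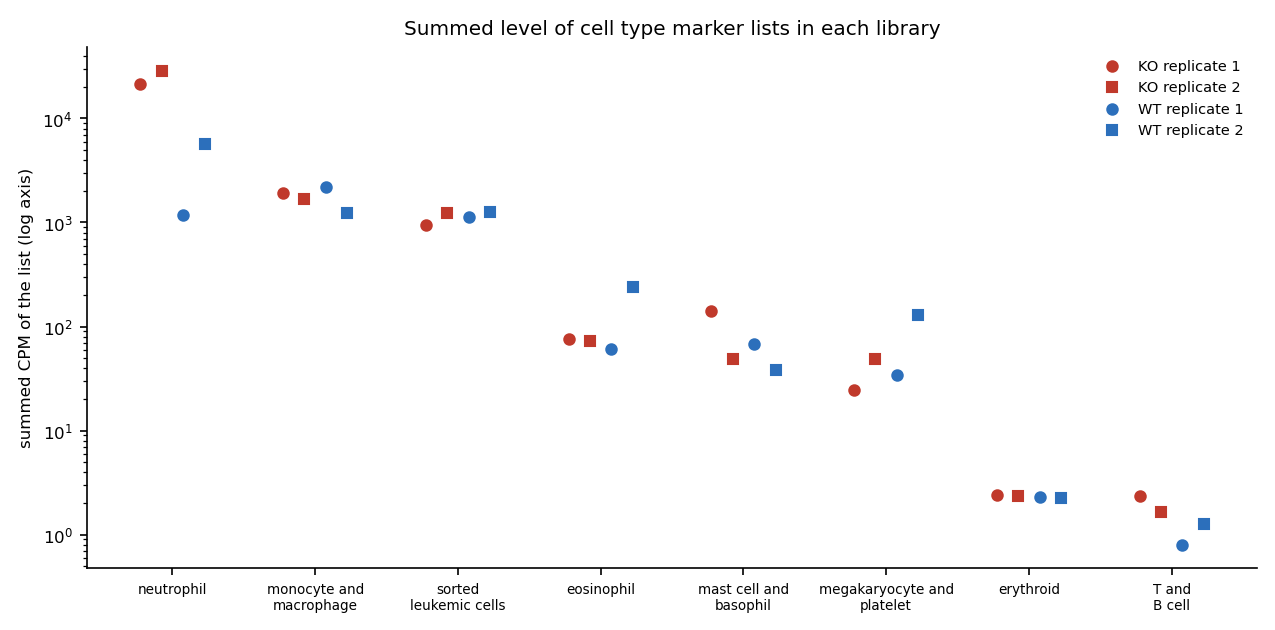
Summed CPM of each marker list on a log axis, with KO libraries in red and WT libraries in blue, circles for replicate 1 and squares for replicate 2. The neutrophil sums of KO lie above those of WT, and the mast cell and basophil sum is highest in KO replicate 1.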

How the data were processed

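Each library has its own deposited file of raw read counts by gene symbol. STAR 2.3.0, HTSeq and build mm10 are named in the submitters' processing notes, without roles. The annotation and strand setting are not given in these sources, so reads of overlapping genes cannot be told apart. In RefSeq, Mgst2 overlaps the gene Gm38247 and Alox5 overlaps Gm38880, so this limit applies to the values of Mgst2 and Alox5. No other enzyme gene overlaps a gene there. The 4 chromatin accessibility samples were not analysed here. Rows for reads without a gene, between 69.3% and 72.4% of all counts, were left out.

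In R 4.3.3, genes were kept by filterByExpr, which left 12623, scaled by TMM and compared between KO and WT with edgeR 4.0.16 (quasi-likelihood F-test, robust, no covariate). The SE was derived from F and the log2 fold change. DESeq2 1.42.0 ran on the 16651 genes with a count. Both were run on simulated data with planted changes and the same fixed spread for every gene. That run does not show how they perform at the spread of these libraries. Within-genotype and pairwise differences are of log2 CPM with a prior count of 2. A chi-square of counts per degree of freedom was 91.1 between the KO replicates and 68.1 between the WT replicates. The replicates thus differed by more than counting noise and were not taken for copies of 1 library, which does not tell biological from technical spread.

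The enzyme genes, lists and markers were chosen with earlier results of these data known. Named genes are the 10 enzymes, pathway genes called by a tool or with groups apart and an absolute log2 fold change over 1, the highest gene of each list, and the 5 genes nearest to Mgst2. Tbxas1, Pla2g4a, Ptgr1, Abcc4, Ptger1, Cysltr1, Ptgfr, Aloxe3 and Jun were added after their values were seen. A listed monocyte marker is not reported here and was left out of its sum. Transcript lengths and protein sequences were not used here, so CPM is not a per-length level, the highest gene of a list is the one with most reads, and the planned protein comparison was not made.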

Additional observations from a re-analysis of the deposited data

How the results depend on the processing

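Scaling by RLE factors or library sizes alone, the unfiltered table and DESeq2 kept 6 enzyme genes higher in both KO libraries, and leaving out 1 library gave between 6 and 9, as fewer libraries then have to be apart. EdgeR's 0 calls over all genes became 4 without a filter on low counts and 11 with a replicate block, ran between 0 and 156 with 1 library left out, and were 352 in DESeq2. DESeq2 called 178 genes without KO replicate 1, 384 without KO replicate 2, 162 without WT replicate 1 and 390 without WT replicate 2. Of the other pathway genes edgeR called 0, between 0 and 1 with 1 library left out and 0 with the replicate block, while DESeq2 called 3, and between 0 and 6 with 1 library left out. A lone library left in a genotype was assumed to vary like the other genotype.

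The replicate numbers are shared between the genotypes, but nothing in the labels ties them to mice. Deviations of same-numbered libraries from their genotype's mean correlated with r = 0.191 over 12623 genes, which are not independent. With the replicate block Ltc4s turned to 0.39 and Ptgs2, at 1.26 without it, was 0.11.

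Signs that turned were those of values near 0 or at low counts. With 1 library left out, Ltc4s ran between -0.98 and 2.36, and Ptgs2 between -6.47 and 2.26. The value -6.47 was without KO replicate 2, where KO was at 0 counts, so this fitted value is no bound. Abcc1, at -0.23 over all libraries and -0.68 without KO replicate 2, was 0.12 without KO replicate 1 (0.13 in DESeq2) and 0.0079 without WT replicate 2 (0.0077 in DESeq2). Ptges3, at -0.0013, was 0.011 with RLE scaling, 0.0091 without a filter, 0.012 with the replicate block, 0.0087 in DESeq2, 0.16 without KO replicate 2 (0.16 in DESeq2) and 0.28 without WT replicate 1 (0.29 in DESeq2). The cause was not tested. Library sizes alone moved the median of all genes to -0.069. Ltc4s, Ptgs2 and Hpgds had at most 49 reads in any library.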
